A study of Drosophila melanogaster with 4 samples.

Results

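Curcumin, a polyphenol pigment of turmeric, was fed to young adult Drosophila melanogaster, and the RNA of whole flies on food with 100 µM curcumin was compared with that of flies of the same age on food without it. The comparison rests on 1 array per side. Described here are all probe sets that name exactly 1 gene and read log2 5 or above, a signal of 32, on at least 1 of the 2 arrays. These were 9219 of the 13647 single-gene probe sets on the array (67.6%), of 18769 probe sets in all, and they stood for 8716 of 11982 genes. The lowest value inside this threshold was 5.00078 and the highest outside it 4.99934.

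The series holds 4 Affymetrix Drosophila Genome 2.0 arrays, a design in which each gene is read by sets of short oligonucleotide probes: young flies without and with curcumin, and old flies (40 days) without and with it. All flies were of the wild-type Canton-S strain, with no transgene or mutation named, and the labels give 30 males and 30 females for each pool. Larvae of all groups grew on standard cornmeal medium. As adults they were given a sucrose and yeast food to which either a curcumin stock or the ethanol carrier was added, so the control food held ethanol too. The young flies were 1 to 3 days old per the labels, while the sample titles give day 1 and the design text 3 days, which leaves at most 3 days of adult feeding. The day of each young pool is not stated, so diet and a difference in age within that range cannot be told apart. The study asked whether curcumin alters gene expression in young as in aged flies.

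The sex given in the labels was checked against its defining genes. The yolk protein genes Yp1 and Yp2 were below the floor of 32 on all 4 arrays, and Yp3 read 43.6 without and 57.9 with curcumin in young flies. None of 16 eggshell and oocyte genes reached the floor on any array, and the highest of them read 26.1. A list of male markers, mostly genes of the accessory gland, was by contrast at or above the floor for 27 and 28 of 28 on the young arrays. Its summed signals were 88857 and 86205. The list also holds msl-2 and Acp65Aa, which are not accessory gland genes. Acp65Aa was the gene below the floor without curcumin, and it read 42.1 with it. Apart from the low Yp3 signal, the labelled females were thus not visible in these markers on any of the 4 arrays. The male list differed little between the young arrays, with a median log2 difference of -0.05, 0 of 28 genes at least 1.5-fold lower and 1 higher, Acp95EF (71.4 and 113, 1.59-fold).

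A newly emerged fly is still completing its adult body: the cuticle goes on hardening and receiving inner layers, the flight muscles finish their growth and fill with mitochondria, and the midgut makes the digestive proteases of the feeding adult. Curcumin has been studied for effects on oxidative stress, inflammation and acetylation, and so the genes of detoxification, antioxidant defence, immunity and stress signalling were described beside those of the body tissues. In whole-fly RNA, fewer cells of a type and less RNA per cell cannot be told apart.

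Most signals lay close to each other on the 2 young arrays. After rescaling to a common mean, the median log2 difference (curcumin minus none) was -0.04 with an SD of 0.29 across probe sets, and 95.3% of them lay within 1.5-fold. At least 2-fold higher signals with curcumin were seen for 25 probe sets (0.271%) and at least 2-fold lower ones for 20 (0.217%). At 1.5-fold the counts were 224 higher (2.43%) and 213 lower (2.31%). This balance depended on the scale: without rescaling 131 were higher and 388 lower, and with each array centred on its median 250 were higher and 166 lower.

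**Figure D1:**
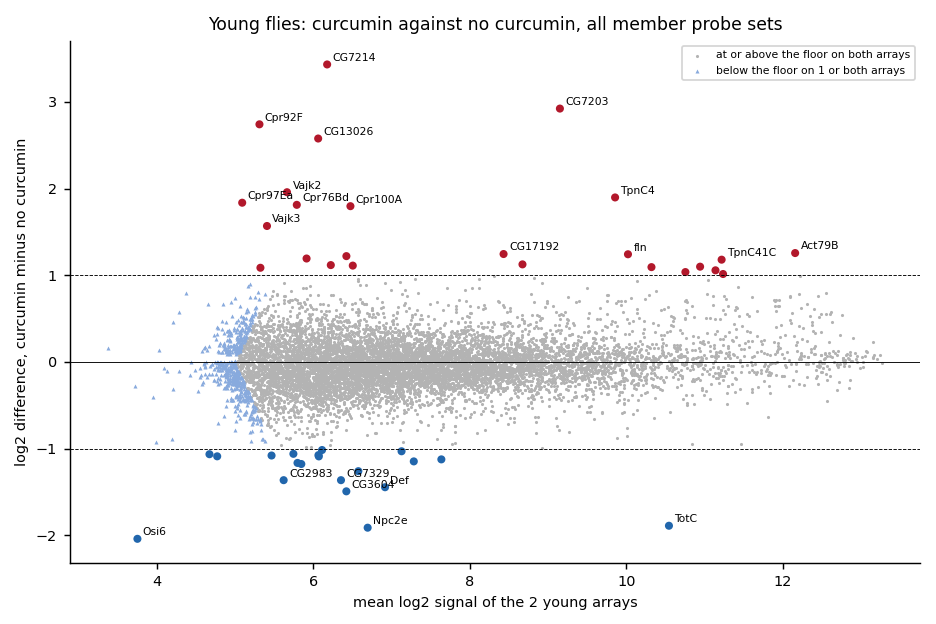
Log2 difference between the young arrays (curcumin minus none, vertical axis) against the mean log2 signal of both arrays (horizontal axis), 1 point per member probe set. Red and blue points are the 25 and 20 probe sets at least 2-fold higher or lower, dashed lines mark 2-fold, and pale triangles have at least 1 side below the floor. CG7214 and CG7203 stand highest, and Osi6, Npc2e and TotC lowest.

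With 1 array per group no difference has a replicate check, no p-value is given, and precision is limited by this number of arrays. The only repeat measure is a different probe set for the same gene. Over the 398 genes with more than 1 member probe set, the brightest and the next differed by a median of 0.18 on the log2 scale. The SD of these gaps, scaled to a single probe set, was 0.22. Of 18 genes whose brightest probe set was at least 1.5-fold apart, the other probe set lay on the same side for 15 and past 1.5-fold for 6. Across these genes, which share both arrays, the differences of the 2 probe sets correlated with r = 0.44 and rho = 0.40.

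**Figure D2:**
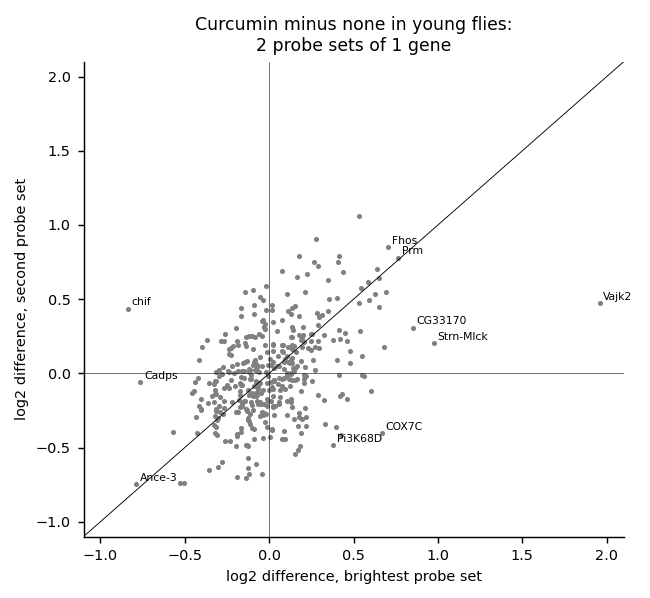
Log2 difference between the young arrays (curcumin minus none) for 398 genes, the brightest probe set of the gene on the horizontal axis and its next on the vertical axis. The line marks equal values. Prm and Fhos lie near it, while Vajk2, chif and COX7C lie far from it.

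Agreement between probe sets varied by gene. All member probe sets were at least 1.5-fold higher for ATPsyngamma (log2 differences 0.65 and 0.65), ND-ACP (0.64, 0.68 and 0.70), Prm (0.77 and 0.78) and Fhos (0.70 and 0.85). For Ance-3, of the angiotensin-converting enzyme family, both were lower (-0.79 and -0.75). They disagreed for chif (-0.84 and 0.44) and COX7C (0.67 and -0.40), and Vajk2 read 1.96 with the one and 0.47 with the other.

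Differences also went with brightness. Among the 343 probe sets with a mean log2 signal of at least 11, 34 were at least 1.5-fold higher (9.91%) and 2 lower (0.583%). Among the 2261 below log2 6, 2.92% were higher and 4.25% lower. The part of brightness in the differences of bright gene groups was not tested, and the medians of the muscle, energy and protease lists are given below also after quantile normalization, which gives all arrays the same distribution of values.

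Cuticle and muscle genes were among those with the largest differences toward curcumin. A single probe set stood for each gene from here on, and 24 genes were at least 2-fold higher (0.275%), since the brightest probe set of Gpdh1 missed that fold. Of these 24, 7 were in the lists of cuticle, Vajk and chitin genes and 4 in the muscle lists, while 8 were in no list. Of the cuticle and Vajk genes among them, 5 were below the floor without curcumin and entered through the curcumin array alone. Of 201 genes at least 1.5-fold higher (2.31%), 24 belonged to energy metabolism, 13 to muscle, 14 to cuticle and chitin and 10 to digestive proteases, and 126 were in none of the lists. At least 2-fold lower were 20 genes (0.229%). The 196 genes at least 1.5-fold lower (2.25%) held 0, 0, 1 and 0 genes of those same groups, and 174 were in no list. The share of all member genes that stand in these lists is not given here. The lists were also chosen with earlier results of these data known, so the counts by list are no support for a difference.

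**Figure D3:**
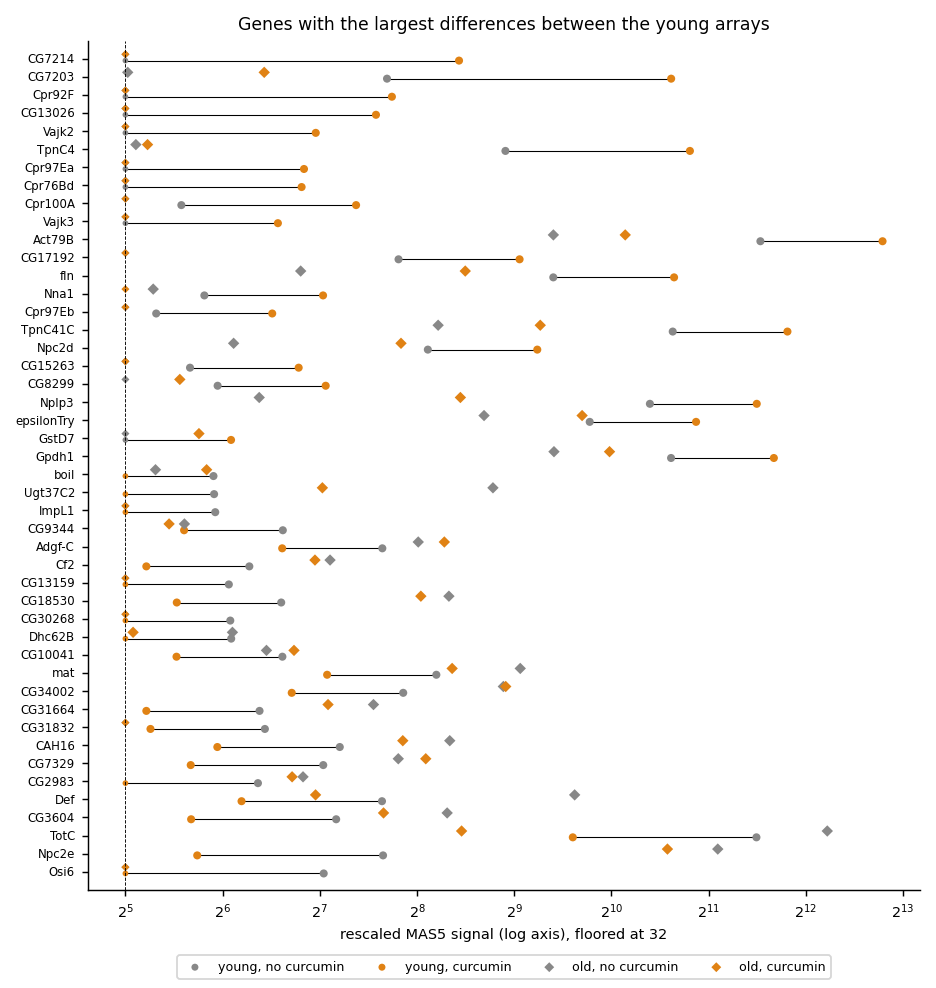
Rescaled signal (log axis, floored at 32) of the genes with the largest differences, circles for young and diamonds for old flies, grey without and orange with curcumin, the young pair joined by a line. Small markers at the dashed line are values below the floor. CG7203 stood at 207 without and 1567 with curcumin, and TotC at 2879 and 777.

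CG7203 read 207 without and 1567 with curcumin, 7.58-fold higher (log2 2.92). Its neighbour CG7214 was below the floor in flies without curcumin and stood at 345 with it, a difference of at least 10.8-fold. Both lie on chromosome arm 2L with a single gene between them in gene order, ATPsynGL, which read 273 and 230. The signals of the outer pair thus stood apart on the curcumin array and that of the gene between them did not. In old flies CG7203 read 32.5 and 86.1, and CG7214 did not reach the floor on either array.

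Cuticle protein genes were mostly higher with curcumin. Most of the members are of the Cpr family, whose proteins bind chitin and build the exoskeleton. The Tweedle genes Twdlalpha (log2 -0.43), TwdlT (0.04) and TwdlH (0.15) are counted with them. Of 105 cuticle protein genes on the array 25 were members, of which 19 were higher, 8 by at least 1.5-fold, and 1 was lower by that much. Their median log2 difference was 0.41, against -0.04 for all genes. Of the 25, 7 had 1 side below the floor and entered through the other array alone, so this count is no support for a difference. With the floor at log2 6 the median of the list was 0.02.

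Cpr92F, Cpr97Ea and Cpr76Bd were all below the floor without curcumin, while with it they read 214, 114 and 112. They were thus higher by at least 6.69, 3.57 and 3.51-fold. Cpr100A was measured on both sides, at 47.7 and 166, 3.48-fold higher, and Cpr97Eb at 39.9 and 91.2, 2.29-fold higher. All 5 genes were below the floor on both old arrays. Cpr67Fb went the other way, from 741 without to 430 with curcumin (log2 -0.79), and Cpr65Au was near equal at 3769 and 4215. The cuticle genes therefore did not share a direction.

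The Vajk genes encode secreted proteins with alanine and proline repeats, and 2 of 4 were members. Vajk2 and Vajk3, which are neighbours, did not reach the floor without curcumin and stood at 124 and 94.9 on the curcumin array, higher by at least 3.89 and 2.97-fold. Among genes that make, modify or bind chitin, 16 of 24 members were higher, 4 of them by at least 1.5-fold, with a median of 0.15. Those 4 were the neighbouring chitin deacetylase genes serp (100.1 to 190, log2 0.93) and verm (71.3 to 132, 0.89), and the chitin-binding protein genes obst-A (75.3 to 139, 0.88) and obst-B (47.7 to 81.2, 0.77). By their brightest probe sets, chitinases and the Idgf genes went both ways by small amounts. They ranged from -0.17 (Cht4) to 0.35 (Cht8) and from -0.20 (Idgf2) to 0.19 (Idgf5). Idgf3 had -0.12 by its brightest probe set but -0.68 by its next. Enzymes of pigment formation and sclerotization, which tan the cuticle, had a median of 0.07 and 0 of 11 members past 1.5-fold either way.

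Osi6, of the Osiris family of membrane proteins with roles in cuticle formation, had the opposite pattern. It stood at 132 without curcumin and did not reach the floor with it, a signal lower by at least 4.11-fold. It was the only one of 24 Osiris genes among the members, and neither old array had it at the floor.

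Muscle genes were higher with curcumin across the contractile apparatus. The sarcomere list holds genes of the thin and thick filaments and others such as Actn, Zasp52 and tn. All 19 were members and 19 were higher, 10 by at least 1.5-fold. Their median log2 difference was 0.60 (0.47 after quantile normalization). Act79B, the actin of leg and other tubular muscles, read 2961 without and 7075 with curcumin, 2.39-fold higher. Flightin (fln), a thick filament protein of the flight muscle, read 676 and 1600, 2.37-fold higher. The actin genes are near-identical in their coding sequence, so their probe sets may share signal.

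Other genes of the sarcomere list were higher by less. The paramyosin gene Prm read 1873 and 3183 (log2 0.77), the myosin light chain genes Mlc1 and Mlc2 had differences of 0.71 and 0.76, troponin T (up) 0.71, and the flight muscle actin Act88F 0.50. The giant protein genes sls, for the titin-like sallimus, and bt, for projectin, had differences of 0.19 and 0.51. The stretchin gene Strn-Mlck read 322 and 633 (0.97), but 0.20 with its other probe set. The lowest of the 19 was tn at 0.16, so the list differed in size and not in direction.

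Of 9 genes in a list of muscle calcium handling, 8 were higher and 3 by at least 1.5-fold, with a median of 0.49 (0.55 after quantile normalization). The list is broad and also holds CASK (-0.01) and Msp300 (0.07), its lowest values. TpnC4, the troponin C isoform of stretch-activated flight muscle, read 481 without and 1792 with curcumin, 3.73-fold higher. TpnC41C, another muscle troponin C, read 1585 and 3591, 2.27-fold higher. The calcium-binding protein gene Scp1 read 4564 and 7948 (log2 0.80), and the calcium pump gene SERCA 5738 and 8360, with 0.51 to 0.58 over 3 probe sets. TpnC73F read 142 and 200 (0.49). The troponin C genes thus ranged from 0.49 to 1.90 on the log2 scale.

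Genes of the mitochondrial respiratory chain were higher with curcumin by small amounts and nearly without exception. By the brightest probe set of each gene, 56 of 57 standard subunit genes were higher, against 43.1% of all genes. At least 1.5-fold higher were 20, and 0 were lower by that much. The median log2 difference was 0.55 (0.44 after quantile normalization) with a range of -0.03 to 1.00. The complexes differed little from one another: the medians were 0.55 for complex I, 0.51 for II, 0.42 for III, 0.56 for IV and 0.55 for ATP synthase. The cytochrome oxidase subunit COX5B read 3373 and 6729, 1.99-fold higher, and the complex I subunits ND-B8 and ND-15 read 199 and 387, and 1003 and 1769. ND-B12 was the only one lower by its brightest probe set, at -0.03. The cytochrome oxidase subunit gene COX7C had 0.67 by its brightest probe set but -0.40 by its other.

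Drosophila also carries duplicate copies of many of these subunit genes, which are known for expression in the testis. These were not higher as a group. Of 17 duplicate copies 7 were higher and 1 by at least 1.5-fold, with a median of -0.08. COX5BL read 267 and 232, where its standard copy COX5B was 1.99-fold higher, and COX7AL read 343 and 260. The exception was COX7AL2, at 3343 and 5689 (log2 0.77). The duplicates were also dimmer, with a median mean log2 signal of 7.12 against 11.4 for the standard copies, and the part of brightness was not tested. The split into standard and duplicate copies was made after their values were seen. Testis genes had a median of -0.02 over 24 members, with 0 past 1.5-fold either way.

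Enzymes that feed the chain were higher by less. Of 10 enzymes of the citric acid cycle 9 were higher and 2 by at least 1.5-fold, with a median of 0.30 (0.21 after quantile normalization), led by the isocitrate dehydrogenase subunit gene Idh3a at 3009 and 4947. Of 12 glycolysis genes 11 were higher and 2 by at least 1.5-fold, with a median of 0.30 (0.17 after quantile normalization). Gapdh1 read 3600 and 6212, and Pgk 1604 and 2753. For Gpdh1, the glycerol-3-phosphate dehydrogenase of the flight muscle shuttle, 4 probe sets gave differences from 0.13 to 1.06. Genes of the mitochondrial ribosome had a median of 0.15 with 54 of 69 higher, but 0.04 without rescaling, and those of the cytosolic ribosome 0.04 with 28 of 41 higher.

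**Figure D4:**
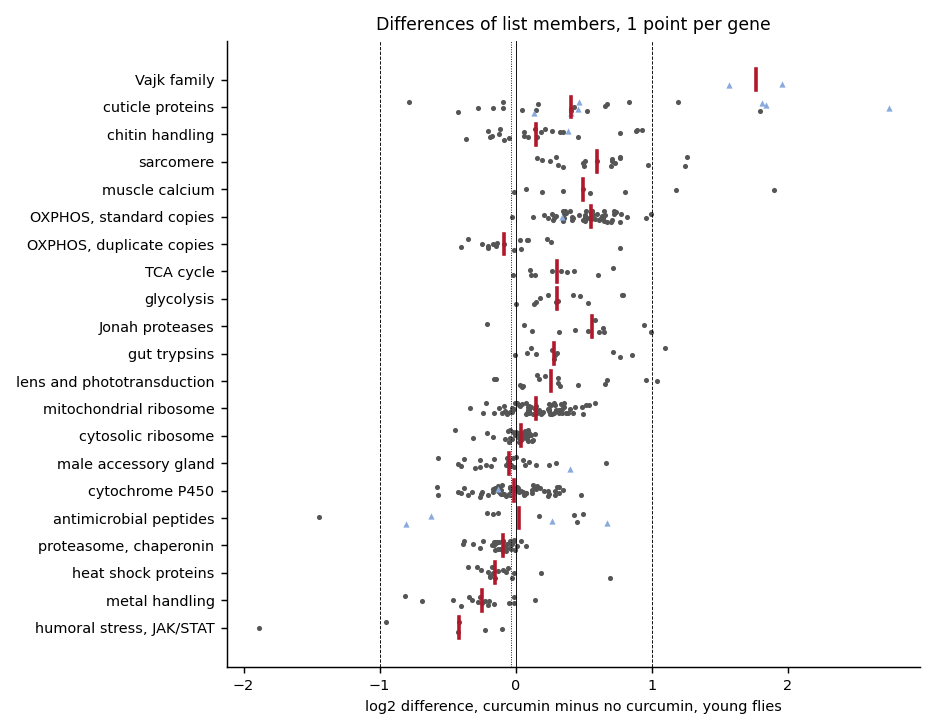
Log2 difference between the young arrays (curcumin minus none) for the members of 21 gene lists, 1 point per gene, with the list median as a red bar. Triangles have a side below the floor, dashed lines mark 2-fold, and the dotted line is the median of all genes at -0.04. Sarcomere, standard respiratory chain and Jonah protease genes lie to the right, and humoral stress and metal handling genes to the left.

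Digestive proteases of the midgut were higher with curcumin. Of 12 Jonah genes, which encode chymotrypsin-like proteases, 11 were higher and 6 by at least 1.5-fold, with a median of 0.56 (0.38 after quantile normalization). Jon44E read 225 and 447 (log2 0.99) and Jon25Bi 1520 and 2924 (0.94), while Jon65Aiii and Jon65Aiv were near equal at 0.12 and 0.06. Of 12 genes in the trypsin list 11 were higher and 4 by at least 1.5-fold, with a median of 0.28 (0.30 after quantile normalization). The list also holds the serine protease genes Ser6, Ser7 and Ser8 (0.28, 0.30 and 0.29). Trypsin epsilon (epsilonTry) read 877 and 1872, 2.13-fold higher, and thetaTry 537 and 973. Members of these families are close copies of each other, so their probe sets may share signal.

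The other digestive genes differed less. Maltase genes, with tobi and the amylase-related gene Amyrel, had a median of 0.08 and 0 of 12 past 1.5-fold. The lipase gene mag (magro) read 1135 and 1722 (log2 0.60), and 1 further lipid gene passed 1.5-fold, the fatty acid synthase gene FASN2, which was lower at 1335 and 790 (-0.76). The other lipid genes lay between these values, with a median of -0.05 over 21.

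Sterol transport genes went both ways. The NPC2 proteins bind sterols in the lumen of the lysosome or outside the cell, and 8 genes of this list were members, 4 higher and 4 lower. Npc2e read 201 without and 53.4 with curcumin, 3.76-fold lower, whereas Npc2d read 276 and 603, 2.18-fold higher, and Npc2f 231 and 363 (log2 0.65). The broadly expressed Npc1a and Npc2a were near equal, at -0.16 and -0.08.

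Genes of the lens and of light detection had a median of 0.26, and 14 of 16 were higher, among them the cuticle gene Cpr72Ec. The corneal lens protein gene retinin read 1208 and 2479, 2.05-fold higher. The scavenger receptor gene ninaD, needed for carotenoid uptake, read 113 and 220 (log2 0.96). The arrestin genes Arr1 and Arr2, which end the light response, were the 2 lower genes of the list, at -0.16 and -0.14, while the phototransduction genes trp (0.46), Galphaq (0.22) and inaD (0.15) were higher. Of the neuropeptide precursor genes Nplp3 alone passed 2-fold, at 1347 and 2885 (2.14-fold higher), and the median of the 16 members was -0.09.

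The mitochondrial phosphate carrier gene Mpcp1, which stands outside the naming rule and was added after its value was seen, read 1699 and 3434, 2.02-fold higher. The remaining genes at least 2-fold higher were CG13026, below the floor and at 191 (at least 5.97-fold), CG17192 (224 and 532), Nna1 (56.2 and 131), CG15263 (50.7 and 110), CG8299 (61.8 and 133) and GstD7, of the glutathione transferases, below the floor and at 68.0 (at least 2.12-fold).

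Genes of the humoral stress response were lower with curcumin. TotC, of the Turandot family of stress-induced humoral proteins, read 2879 without and 777 with curcumin, 3.70-fold lower. Listericin, an antibacterial protein gene of the JAK/STAT pathway, read 305 and 158 (log2 -0.95). All 6 members of the humoral stress and JAK/STAT list were lower, with a median of -0.42, down to -0.10 for the transcription factor gene Stat92E. TotC and Listericin alone were at least 1.5-fold lower, and over all genes 43.1% were higher by any amount. The other 6 genes of that list did not reach the signal threshold.

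Antimicrobial peptide genes did not share a direction. Of 12 members 6 were higher and 6 lower, with a median of 0.02. Def, the defensin gene, read 199 and 73.2, 2.72-fold lower. AttD (49.4) and Drsl3 (55.8) were below the floor with curcumin, whereas edin was below the floor without it and read 51.0 with it. Metchnikowin (Mtk, 1544 and 1373), diptericin (DptB, 261 and 238) and drosomycin (Drs, 1330 and 1501) were near equal. Genes of immune recognition and signalling had a median of -0.09 with 9 of 24 higher, and PGRP-LB, a peptidoglycan amidase that dampens the response, was lowest at 166 and 108 (-0.62). Haemocyte genes had a median of -0.01 and 0 of 21 past 1.5-fold.

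Metal handling genes were lower, mostly by small amounts, in 16 of 17 cases, with a median of -0.25. Over all genes 43.1% were higher by any amount. The metallothionein genes MtnC and MtnD, whose proteins bind copper and other metals, read 481 and 298, and 92.3 and 52.6. MtnB read 50.8 and 38.5, and MtnA 7289 and 6232 (log2 -0.23). The copper exporter gene ATP7 was the exception at 0.14, and the ferritin genes Fer1HCH and Fer2LCH lay at -0.01 and -0.02.

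Heat shock genes were lower in 15 of 17 cases, with a median of -0.15 and 0 past 1.5-fold lower. Hsp27 read 431 and 338 (log2 -0.35) and Hsc70-4 7970 and 6919 (-0.20). Hsc70-1 went the other way, at 518 and 837 (0.69), with 0.25 and 0.55 by its other probe sets. Proteasome and chaperonin genes were lower in 31 of 34 cases with a median of -0.09, close to the median of all genes. Beside these counts, 43.1% of all genes were higher by any amount. For both lists most differences of single genes were smaller than 0.22, the SD of gaps between probe sets of a gene, scaled to a single probe set. That SD comes from the same arrays and does not measure the spread between pools of flies.

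Detoxification and antioxidant genes were near the median of all genes. Of 64 cytochrome P450 genes 31 were higher, 0 were at least 1.5-fold apart either way, and the median was -0.02. Glutathione transferases had a median of -0.06 over 31 genes and UDP-glycosyltransferases 0.04 over 26. Among the glutathione transferases 1 gene was at least 1.5-fold higher, GstD7 (log2 1.09, a bound), and 1 lower, GstD2 (194 and 102, -0.92). Among the glycosyltransferases 1 was higher, Ugt37A3, which was below the floor without curcumin and at 55.8 with it. The 2 lower ones were Ugt37C2, at 60.2 without curcumin and below the floor with it, and Ugt50B3 (162 and 104, -0.64). Antioxidant genes had a median of -0.01 with 0 of 18 past 1.5-fold by their brightest probe sets. SelR had 0.29 by its brightest probe set but read 75.0 and 124 (0.73) with its other.

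Of 16 genes picked for their part in stress resistance, ageing and acetylation, 12 were members, and Thor, Sod1, Hsp22 and Hsp70Ab were not analysed here. The mitochondrial superoxide dismutase gene Sod2 had the largest difference, 1267 and 1831 (log2 0.53), followed by Keap1, the inhibitor of the antioxidant factor CncC, at 70.5 and 50.0 (-0.50). Catalase (Cat) read 4054 and 3658, GstD1 5876 and 5175, and the CncC gene cnc 435 and 491. The acetyltransferase gene nej read 61.5 and 73.4 and the deacetylase gene Sirt1 288 and 283. The longevity-related genes InR (145 and 127), foxo (112 and 121) and bsk (446 and 427) were near equal. The G protein-coupled receptor gene mth was below the floor without curcumin and read 34.6 with it. None of the 12 was 1.5-fold apart.

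In the lists of insulin and TOR, JNK, acetylation, clock and autophagy genes, medians lay between -0.09 and -0.01. By the brightest probe sets, only rictor, a subunit of TOR complex 2, was at least 1.5-fold apart in these lists, at 103 and 53.1 (log2 -0.96). The clock gene cwo had -0.14 by its brightest probe set but read 84.3 and 51.6 (-0.71) with its other. The median over 29 odorant-binding protein genes was 0.01, and Obp99b (2547 and 1318, -0.95) and Obp56f (611 and 347, -0.82) alone passed 1.5-fold.

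Few genes of the remaining lists were 1.5-fold apart. Juvenile hormone and ecdysone response genes had a median of -0.11 over 21, with 2 at least 1.5-fold lower: ImpL1, at 60.7 without curcumin and below the floor with it, and Jhbp12, of the juvenile hormone binding protein family (686 and 437, log2 -0.65). Synaptic genes had a median of 0.02 over 20 and the nicotinic receptor subunit nAChRalpha5 (45.3 and 69.7) as the only one past 1.5-fold. Proton pump (V-ATPase) genes had a median of 0.08 with 0 of 30 past that fold. Methuselah receptor genes had a median of -0.12 over 6, and mthl14 read 148 and 84.1 (-0.81). Cell cycle genes had a median of -0.12 over 9, and CycD, at 48.4 without curcumin, did not reach the floor with it, lower by at least 1.51-fold. The 3 lysozyme genes had a median of 0.16, with 0 past 1.5-fold. The larval storage protein gene Lsp2 read 1086 and 1329 (0.29), while the larval glue genes and Fbp1 were below the floor on all arrays.

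The other 16 genes at least 2-fold lower were in no list. CG3604 read 144 and 51.1, CG7329 131 and 51.0, the carbonic anhydrase family gene CAH16 148 and 61.6, and mat 294 and 135. Adgf-C, of the adenosine deaminase growth factors, read 200 and 97.9, and the zinc finger factor gene Cf2 77.4 and 37.1. CG31832, CG31664, CG34002, CG10041, CG18530 and CG9344 were between 2.02-fold and 2.26-fold lower. The axonemal dynein gene Dhc62B (68.0), CG2983 (82.3), CG30268 (67.6) and CG13159 (66.9) were below the floor with curcumin. Of these 20 genes 15 were measured on both sides, and most were dim, with a median mean log2 signal of 6.09.

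Genes next to each other in the genome were past 1.5-fold together in 7 pairs that were higher and 2 that were lower. The higher pairs were Vajk2 with Vajk3, Cpr97Ea with Cpr97Eb, verm with serp, Jon25Bi with Jon25Bii, Jon65Ai with Jon65Aii, cype with CG14022 and CG33169 with CG33170. The lower ones were CG31664 with c-cup, and PH4alphaNE2 with CG31524. Of the higher pairs 5 are of 1 gene family each. The share over all neighbouring pairs of genes was not counted, so these pairs are listed only and are no result about neighbours.

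The old pair, measured on arrays that the young pair does not share, gave a second and longer exposure, of up to 40 days. There, 393 of 8353 genes were at least 2-fold higher with curcumin (4.7%) and 85 lower (1.02%). Over 8820 probe sets that could be compared at both ages, the differences correlated with r = 0.14 and rho = 0.12 across probe sets, which are not independent replicates. The SD of the differences was 0.28 in the young and 0.50 in the old pair. Age and time on the food cannot be told apart in this comparison.

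**Figure D5:**
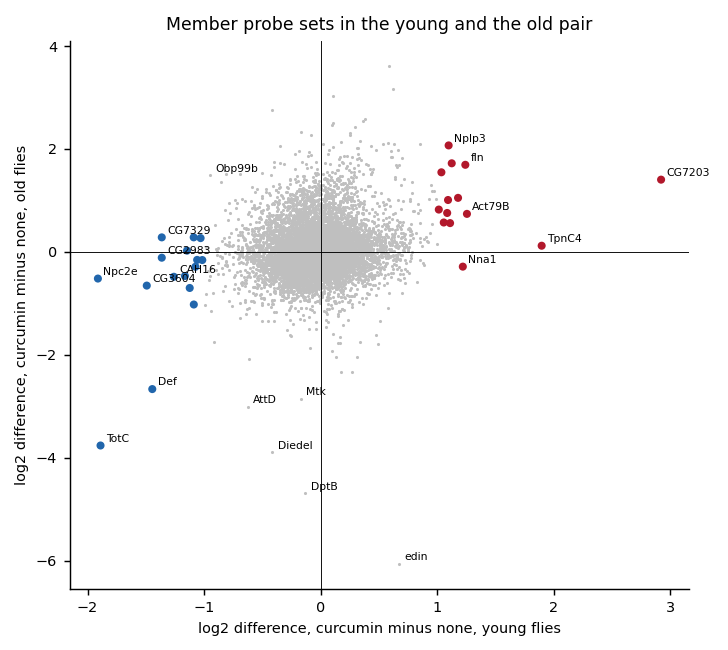
Log2 difference (curcumin minus none) of member probe sets in the young pair (horizontal axis) and the old pair (vertical axis). Red and blue points are those at least 2-fold higher or lower in the young pair. CG7203, fln and Nplp3 were higher at both ages, TotC and Def lower at both, and edin lay opposite.

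Of the 25 probe sets at least 2-fold higher in young flies, 11 were below the floor on both old arrays. Of the other 14, 13 were higher in old flies too and 7 by at least 2-fold. They included fln (112 without and 361 with curcumin in old flies), Nplp3 (83.1 and 349), retinin (107 and 313), Npc2d (69.2 and 228) and TpnC41C (298 and 616). TpnC4 was near equal in old flies, at 34.5 and 37.5. Of the 20 lower probe sets, 4 were below the floor on both old arrays, and of the other 16, 12 were lower in old flies and 3 by at least 2-fold: TotC (4770 and 352), Def (788 and 124) and Dhc62B (68.6 and 33.8). Over all genes of the old pair 47.7% were higher with curcumin. Of the probe sets at least 1.5-fold higher in young flies, 146 of the 197 that could be read in old flies were higher there too, with a median of 0.24. Of those at least 1.5-fold lower, 116 of 199 were lower in old flies and 83 higher, with a median of -0.09, so at this fold the lower ones lay close to the share over all genes.

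Gene groups can be set side by side at both ages. Median log2 differences were 0.60 in young and 0.33 in old flies for sarcomere genes, 0.55 and 0.19 for the standard respiratory chain genes, and 0.56 and 1.56 for Jonah proteases. The duplicate respiratory chain genes had -0.08 in young and 0.77 in old flies, where 17 of 17 were higher. The list of male markers had -0.05 and 0.92, and antimicrobial peptide genes 0.02 and -2.34. These differences between the ages were not tested.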

How the data were processed

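Gene expression was measured on 4 one-colour Affymetrix arrays, 1 per group, grouped by the labels. The deposited log2 values were taken as signals that the authors made with MAS5, per the submitters' processing notes (version not given in the sources used here). Detection calls were not used. Each array was multiplied to the same 2% trimmed mean (factors 0.991, 1.06, 0.975 and 0.976 for young without and with curcumin and old without and with it), floored at log2 5 (signal 32), and subtracted, curcumin minus none. Where 1 side lay below the floor, the fold is a bound computed against 32. Gene names came from the platform's annotation, brought up to date by gene number with RefSeq's Release 6 genes (13544 of 13647 probe sets matched). For genes with several member probe sets the brightest stood for the gene.

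No test was run, since each group has 1 array. The members and the 47 gene lists were chosen with earlier results of these data known. Some lists were trimmed of misplaced genes, and the respiratory chain list was split, after the values arrived. Named genes were the 15 largest differences each way at or above the floor on both arrays, the 8 largest bounds each way, up to 4 genes per list, genes whose probe sets were all 1.5-fold apart the same way, and 16 picked genes. Others named as examples of a list were chosen after their values were seen. Alternatives were no rescaling, median centring, quantile normalization, other floors and signal thresholds, the mean over probe sets and, added after seeing the data, a running median over 501 probe sets of similar signal. Python 3.11.15, numpy 2.4.6, pandas 2.3.3 and scipy 1.17.1 were used, and the code was tested on simulated data.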

Additional observations from a re-analysis of the deposited data

Results flagged for a closer look

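Values of 5 named genes lay at least 1.5-fold apart in opposite directions in the young and the old pair, which each have 1 array per side. These differences between the ages were not tested. The infection-induced gene edin had a log2 difference of 0.67 in young flies, where the side without curcumin was below the floor, and of -6.06 in old flies, where the side with curcumin was below it, so both are bounds. The metallothionein genes MtnD and MtnC were at -0.81 and -0.69 in young flies and at 1.52 and 1.51 in old flies. The odorant-binding protein genes Obp99b and Obp56f were at -0.95 and -0.82 in young flies and at 1.49 and 0.81 in old flies.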

How the results depend on the processing

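No paired analysis was possible because each group has 1 array. Without rescaling, 31 probe sets were at least 2-fold lower, and 131 were at least 1.5-fold higher and 388 lower, against 20, 224 and 213. Without a floor 52 were 2-fold higher and 56 lower, and with the floor at log2 4 there were 52 and 55. With the floor at log2 6, 10 were 2-fold lower and 102 were 1.5-fold lower. Among members at log2 7 or above, 16 and 10 were 2-fold and 124 and 80 were 1.5-fold higher and lower. Subtracting the running median gave 266 higher and 163 lower at 1.5-fold. Over the alternatives run, the SD of gaps between probe sets of a gene, scaled to a single probe set, ranged from 0.175 to 0.266. The correlation of young with old differences ranged from 0.116 to 0.235. No list median above 0.2 in size and no difference of a named gene past 1.5-fold turned its sign. Averaging the probe sets of a gene gave 1.22 for Vajk2, 0.59 for Strn-Mlck and 0.50 for Gpdh1. At low signal the differences scattered widely when no floor was applied. Their SD was then 0.49 for the 443 probe sets just inside the signal threshold and 0.67 for the 426 just outside it.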

Other observations

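Differences were spread over the genome. Between 1.95% and 2.57% of genes were at least 1.5-fold higher with curcumin on each of the 5 large chromosome arms, and between 1.98% and 2.78% lower, with medians from -0.05 to -0.03.

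The probe sets for which the tables used here name no gene were not compared above, and 803 of them reached log2 5 on a young array. Of these, 3 were higher and 4 lower by 2-fold or more. Probe set 1623635_at read 1568 without and 370 with curcumin in young flies, and 4466 and 239 in old flies. Probe set 1635549_at read 7033 and 2360 in young flies, and 7015 and 1343 in old flies. Probe sets 1625164_at (962 and 344) and 1627551_s_at (382 and 154) were lower too, and both were also lower in old flies. Probe sets 1641581_at (46.0 and 140), 1630252_at (232 and 596) and 1623151_a_at (72.4 and 180) were higher.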
